A study of Rattus norvegicus with 32 samples.

Results

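Lrat, Des, Ngfr, Dcn, Lum, Islr, Thy1 and Postn are 8 genes used to mark hepatic stellate cells and fibroblasts. They were found by their symbol among the 32623 genes measured in rat liver sinusoidal endothelial cells (LSECs). None of these genes is a defining gene of endothelium, and their levels were followed in LSECs isolated in the course of chronic liver disease. In the CCl4 experiment the rats were Wistar Han. There were 6 healthy animals, and rats that inhaled carbon tetrachloride (CCl4, a liver toxin) for 2 weeks (acute, n = 5), 6 weeks (fibrosis, n = 5) or 12 to 14 weeks (cirrhosis, n = 6), the last duration coming from the description of the study. According to the methods, drinking water of the CCl4 model held phenobarbital and cells were isolated several days after the last toxicant. The TAA experiment held 5 libraries labelled control and 5 labelled TAA control rat, here called the T control and T TAA control groups. The labels give Wistar Han for both groups and the description of the study gives Sprague-Dawley, and the labels do not settle which group received thioacetamide (TAA), so differences are given as T TAA control minus T control. LSECs were separated on an iodixanol density gradient after digestion of the liver, and the sources describe no selection by a surface marker for the rat cells.

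Stellate cells lie between sinusoidal endothelium and hepatocytes and store vitamin A. Lecithin retinol acyltransferase (Lrat) makes the retinyl esters of that store, desmin (Des) is their intermediate filament protein, and Ngfr is the low-affinity neurotrophin receptor p75NTR. On activation stellate cells become myofibroblasts, which deposit collagen. Decorin (Dcn) and lumican (Lum) are small leucine-rich proteoglycans that bind collagen fibrils, and Islr (meflin) is a leucine-rich surface protein of mesenchymal cells. Thy1 is a surface glycoprotein of portal fibroblasts and of some cells of the T lineage. Periostin (Postn) is a matricellular protein of remodelling tissue.

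Total expected counts per library ranged from 25646531 to 46464289, and the 8 genes had whole-number counts in all 32 libraries. Marker genes of other liver cells also moved between the groups. The summed level of 15 LSEC genes was 21100 to 38600 CPM (counts scaled to the library total with TMM factors) in healthy, 4960 to 5810 in acute, 3640 to 4750 in fibrosis and 20000 to 25300 in cirrhosis libraries. No gene of that list was at 0 in any group as a whole. Hepatocyte genes summed to 1370 to 29600 CPM in healthy, 151 to 965 in acute, 1390 to 5570 in fibrosis and 3130 to 15300 in cirrhosis libraries. Macrophage genes summed to 625 to 4740, 104 to 265, 43.7 to 265 and 1380 to 3920 CPM in the same order, and Timd4 was at 0 in the acute and fibrosis groups. Acute and fibrosis libraries therefore lay below the healthy range for LSEC and macrophage genes together, and the part of cell composition in the results below was not tested. In bulk RNA fewer cells of a type and less RNA per cell cannot be told apart. The T TAA control libraries 14 and 15 were the closest replicates, with a chi-square per degree of freedom of 2.96 against 23.6 for the next closest pair. They differed by more than sampling noise, which 2 libraries of 1 animal could do as well. Whether they come from 1 animal was not tested, and they were kept as 2 libraries. If they do, the T TAA control group holds fewer animals than libraries. Taken as 1 library, they left 5 marker genes called in the TAA experiment, as in the main fit.

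RefSeq held a promoter window, from 250 bases before to 50 bases after the gene start, for Lrat, Des, Lum, Islr and Postn, 5 of the 8 genes. Windows of Islr, which was lower than in healthy libraries at every stage, and of Lum and Postn, both higher in cirrhosis, are printed 5′ to 3′ on the GRCr8 assembly, with the E-box CANNTG in capitals, searched on both strands.
Islr, chr8:67469209-67469508, minus strand: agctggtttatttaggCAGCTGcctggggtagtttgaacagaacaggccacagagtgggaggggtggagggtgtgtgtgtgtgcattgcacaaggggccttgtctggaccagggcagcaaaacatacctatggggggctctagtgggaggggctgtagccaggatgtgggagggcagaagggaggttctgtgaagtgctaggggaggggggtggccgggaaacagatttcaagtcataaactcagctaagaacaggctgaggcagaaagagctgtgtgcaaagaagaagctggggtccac
Lum, chr7:34245456-34245755, plus strand: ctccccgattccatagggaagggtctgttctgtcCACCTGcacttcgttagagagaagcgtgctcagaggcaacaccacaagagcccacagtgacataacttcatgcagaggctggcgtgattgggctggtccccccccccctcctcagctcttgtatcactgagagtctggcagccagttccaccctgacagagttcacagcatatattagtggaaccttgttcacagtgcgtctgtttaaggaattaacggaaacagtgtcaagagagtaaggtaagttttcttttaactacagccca
Postn, chr2:140677811-140678110, plus strand: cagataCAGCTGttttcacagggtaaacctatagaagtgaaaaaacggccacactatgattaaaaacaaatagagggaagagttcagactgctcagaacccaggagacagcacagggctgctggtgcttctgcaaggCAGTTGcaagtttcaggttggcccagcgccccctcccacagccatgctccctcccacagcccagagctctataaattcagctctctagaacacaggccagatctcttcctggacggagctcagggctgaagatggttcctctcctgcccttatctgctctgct
An E-box was found once in Islr (234 bases before the start), once in Lum (216 bases before) and at 2 places in Postn (244 and 113 bases before). It was also found in Lrat and Des, but 72.1% of the 33469 RefSeq windows of this length held one. TATAAA was found in Postn only (44 bases before the start) among the 5 windows, against 14.2% of all windows. AGATAA was likewise found in Postn only, 36 bases after the start, against 11.6% of all windows. TGANTCA (7.33% of all windows), the CArG box (1.64%) and GTCTAGAC (0.197%) were found in none of the 5 windows. The Islr, Lum and Postn windows thus had the E-box in common, a pattern present in most windows. Their GC content was 56.0%, 50.7% and 52.0%, beside a median of 51.7% over all windows, and it was 61.3% in Lrat and 67.7% in Des.

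A gene counted as called where limma-voom gave a fold-change above 1.5 together with a p-value below 0.05 before adjustment, and its Benjamini-Hochberg adjusted p-value is given beside it. In acute LSECs 35.8% of the genes tested were called higher and 38.3% lower. Of the 6 marker genes that passed the low-count filter there, 5 were called lower (Lrat, Des, Ngfr, Islr and Thy1) and 0 higher. In fibrosis the shares over all genes were 35.8% higher and 35.4% lower, and of 7 marker genes tested 4 were called lower (Lrat, Des, Ngfr and Islr) and 2 higher (Dcn and Postn). In cirrhosis 28.8% of genes were called higher and 25.7% lower, and all 8 marker genes were tested. There 5 were called higher (Lrat, Dcn, Lum, Thy1 and Postn), Islr was called lower, and Des and Ngfr were not called. The 3 comparisons share the same 6 healthy libraries. Without TMM factors the median log2 fold change of all genes was 0.41 higher in acute, 0.40 higher in fibrosis and 0.35 higher in cirrhosis than with them. The split of all called genes then moved from 50.3% to 60.7% higher in fibrosis and from 52.8% to 71.2% higher in cirrhosis. Among the fitted differences of the marker genes against healthy, this scaling turned the direction of Thy1 in fibrosis, which was not called. Called directions differed among the 8 genes in fibrosis and in cirrhosis, so they are described by name and not as a measure of 1 cell type.

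**Figure D1:**
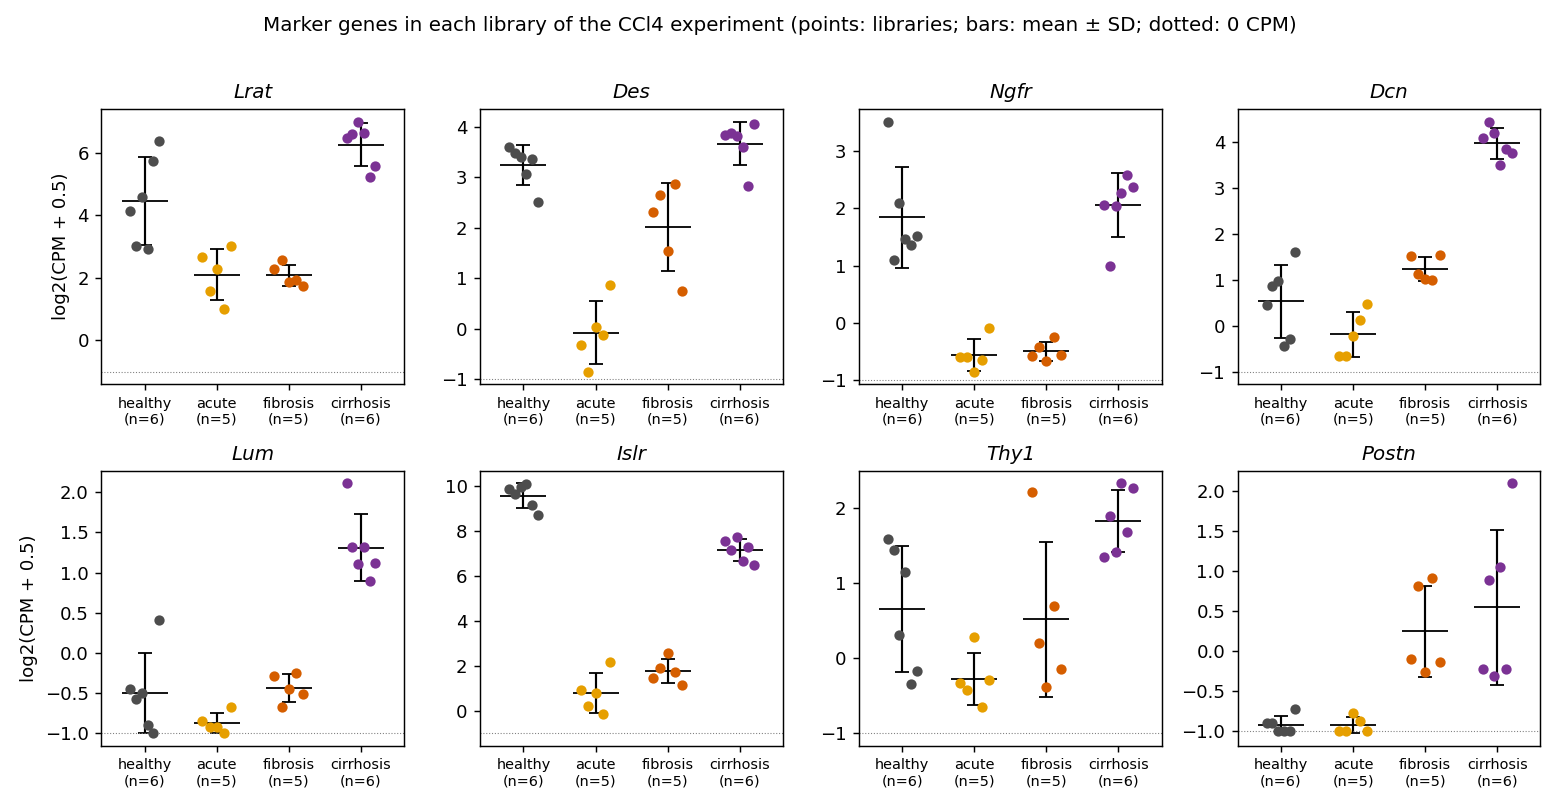
Level of each of the 8 marker genes in every library of the CCl4 experiment, as log2(CPM + 0.5) on the vertical axis, against the 4 groups. Points are libraries, horizontal bars with whiskers are mean ± SD, and the dotted line is 0 CPM. Islr was at 423 to 1120 CPM in healthy and at 0.415 to 4.07 CPM in acute libraries, while Dcn was highest in cirrhosis, at 10.9 to 21.4 CPM.

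Lrat, of the retinoid store, was lower than in healthy LSECs at the early stages and higher in cirrhosis. Its level ranged from 7.08 to 83.2 CPM (median 20.3) in the 6 healthy libraries. In acute libraries it was 5.85, 2.48, 4.33, 1.52 and 7.61 CPM, and in fibrosis 4.36, 5.40, 3.19, 3.33 and 2.86 CPM. Cirrhosis libraries held 37.0 to 128 CPM (median 92.7). Healthy libraries thus spread widely, and 1 acute library (replicate 8) overlapped the healthy range, whereas all fibrosis libraries lay below it. All cirrhosis libraries lay above every acute and fibrosis library. Cirrhosis and healthy overlapped, with healthy replicates 5 and 6 at 53.0 and 83.2 CPM and cirrhosis replicates 5 and 6 at 37.0 and 47.8 CPM. The log2 fold change against healthy was -2.55 in acute (SE 0.75, adjusted p = 0.00779, a 5.85-fold lower level), -2.48 in fibrosis (SE 0.71, adjusted p = 0.00741) and 1.81 in cirrhosis (SE 0.56, adjusted p = 0.0141, 3.51-fold higher). Between acute and fibrosis the difference was 0.12 on the log2 scale (SE 0.41, adjusted p = 0.854) and was not called, so these neighbours in the order of levels did not differ beyond their spread.

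Des had a different course, with its lowest level in acute LSECs and a partial return in fibrosis. Healthy libraries held 5.22 to 11.7 CPM (median 9.99). Acute libraries held 0.299, 0.0545, 0.528, 0.415 and 1.33 CPM, or 2 to 42 counts, and fibrosis libraries 4.47, 5.77, 2.43, 6.80 and 1.17 CPM. In cirrhosis Des was at 6.64 to 16.1 CPM (median 13.7). Acute libraries lay wholly below the healthy ones, whereas fibrosis overlapped both and cirrhosis overlapped healthy. The log2 fold change against healthy was -4.59 in acute (SE 0.55, adjusted p = 1.04e-05, 24.1-fold lower), -1.28 in fibrosis (SE 0.41, adjusted p = 0.013) and 0.47 in cirrhosis (SE 0.26, adjusted p = 0.133, not called). Without acute replicate 2, the library with 2 counts, the acute level was 15.7-fold lower. Des was called higher in fibrosis than in acute (10.3-fold, adjusted p = 0.0164, and 6.73-fold without acute replicate 2, adjusted p = 0.0376) and higher in cirrhosis than in fibrosis (3.49-fold, adjusted p = 0.00152). The difference between cirrhosis and healthy was called without TMM factors (0.80 on the log2 scale, adjusted p = 0.0107), with upper-quartile factors (0.61, adjusted p = 0.0524) and without cirrhosis replicate 5 (0.64, adjusted p = 0.0227).

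Ngfr, the neurotrophin receptor, was close to the limit of detection at both early stages. It was at 1.64 to 10.9 CPM (median 2.3) in healthy libraries, with replicate 1 at the top. In acute libraries it was 0.163, 0.163, 0.0555, 0.138 and 0.442 CPM, which are 2 to 14 counts, and in fibrosis 0.172, 0.25, 0.133, 0.344 and 0.175 CPM, which are 4 to 12 counts. Cirrhosis libraries held 1.49 to 5.51 CPM (median 3.98). No acute or fibrosis library reached the lowest healthy or cirrhosis library. Ngfr fell by 4.12 on the log2 scale in acute (SE 0.66, adjusted p = 0.000107, 17.4-fold) and fell by 3.71 in fibrosis (SE 0.61, adjusted p = 0.000149, 13.1-fold), and the difference between cirrhosis and healthy was 0.26 (SE 0.44, adjusted p = 0.625). The cutoff of the filter was reached by all 6 healthy libraries, but by 1 acute and 1 fibrosis library. Ngfr thus entered the fits of acute and fibrosis through the healthy libraries, and the size of its falls depends on the prior count. Schwann cells also carry this receptor, and Schwann cell and neural genes summed to 3.4 to 16.7 CPM in healthy, 2.65 to 6.22 in acute, 4.49 to 8.52 in fibrosis and 10.2 to 15.7 in cirrhosis libraries, with Sox10 at 0 in healthy, and their part was not tested. Fibrosis and acute, where the filter removed Ngfr, differed by 0.06 in log2(CPM + 0.5) (exact two-sided permutation test over 5 and 5 libraries, p = 0.651, adjusted p = 0.913 over 5 tests, smallest possible p = 0.00794).

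Both proteoglycans were highest in cirrhosis. Mesothelial genes, of another cell type that makes them, summed to 4.08 to 93 CPM in healthy, 0.463 to 1.75 in acute, 2.07 to 4.36 in fibrosis and 4.65 to 12.6 in cirrhosis libraries, and their part was not tested. Dcn was at 0.233 to 2.56 CPM (median 1.1) in healthy libraries and at 0.136, 0.136, 0.361, 0.599 and 0.884 CPM in acute libraries. In fibrosis it was at 2.35, 1.68, 1.53, 1.49 and 2.42 CPM, and in cirrhosis at 10.9 to 21.4 CPM (median 15.2). Every cirrhosis library lay above every library of the other 3 groups, and every fibrosis library lay above every acute library. Dcn was 17.3-fold higher in cirrhosis than in healthy LSECs (log2 fold change 4.11, SE 0.45, adjusted p = 7.24e-05), 8.12-fold higher than in fibrosis (adjusted p = 9.45e-07) and 45.1-fold higher than in acute LSECs (adjusted p = 4.8e-07). Fibrosis was 5.84-fold above acute (adjusted p = 0.00627). The difference between fibrosis and healthy was 1.16 on the log2 scale (SE 0.52), called before adjustment but with an adjusted p = 0.0605 in limma-voom. That call was lost in edgeR (0.79, adjusted p = 0.182) and DESeq2 (0.84, adjusted p = 0.133), and when any of healthy replicates 1, 4 and 5 or any fibrosis library was left out. The difference between acute and healthy was -1.34 (SE 0.71, adjusted p = 0.105, not called), and it was called with weights per library, in 1 fit over the 4 groups, and without healthy replicate 4 or 5.

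Lum was rare before cirrhosis. Healthy libraries held 0 to 32 counts (0 to 0.827 CPM, median 0.188), and a count of 0 in replicate 5 allows up to 3 counts. Acute libraries held 0 to 4 counts and fibrosis libraries 0.316, 0.125, 0.233, 0.344 and 0.204 CPM, or 4 to 12 counts. In cirrhosis Lum was at 1.36 to 3.82 CPM (median 1.83), above every other library of the experiment. The fitted log2 fold change of cirrhosis against healthy was 3.71 (SE 0.66, adjusted p = 0.000613, 13.1-fold), and 3.08 (8.44-fold) without healthy replicate 5. Cirrhosis was also above fibrosis (2.98 on the log2 scale, SE 0.40, adjusted p = 2.36e-05) and above acute (5.44, SE 0.56, adjusted p = 1.73e-06). The cutoff of the filter was reached by all 6 cirrhosis libraries, but by 1 healthy, 0 acute and 2 fibrosis libraries. Lum thus entered these fits through the cirrhosis libraries, and the size of its differences from healthy and acute depends on the prior count. The filter removed Lum from the other comparisons. There the difference in log2(CPM + 0.5) was -0.37 between acute and healthy (exact two-sided permutation test, p = 0.0974, adjusted p = 0.244 over 5 tests), 0.07 between fibrosis and healthy (exact permutation p = 0.814, adjusted p = 0.913) and 0.44 between fibrosis and acute (exact permutation p = 0.0159, adjusted p = 0.0794).

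Islr was the gene called lower at every stage. Its level was 423 to 1120 CPM (median 883) in healthy libraries (15884 to 28678 counts). Acute libraries held 1.39, 0.654, 1.22, 0.415 and 4.07 CPM, and fibrosis libraries 2.24, 3.21, 5.49, 2.81 and 1.75 CPM. Cirrhosis libraries held 88.9 to 215 CPM (median 151). The healthy, cirrhosis and early-stage libraries thus formed 3 ranges that did not overlap. Islr fell by 9.41 on the log2 scale in acute (SE 0.51, adjusted p = 1.39e-08, 679-fold), fell by 8.01 in fibrosis (SE 0.37, adjusted p = 6.38e-09, 258-fold) and fell by 2.43 in cirrhosis (SE 0.29, adjusted p = 9.53e-05, 5.39-fold). Cirrhosis was 50.2-fold above fibrosis (adjusted p = 7.27e-08). Acute and fibrosis differed by 1.45 (SE 0.52, adjusted p = 0.0712), a call made before adjustment that was lost in edgeR (1.09), in DESeq2 (1.07) and without acute replicate 4 (1.06, adjusted p = 0.161). The summed level of the LSEC marker genes was also lowest in the acute and fibrosis libraries, and 13 of 15 in acute and 14 of 15 in fibrosis were called lower. Cdh5, the endothelial cadherin, did not follow the sum and had a mean of 1290 CPM in healthy and 1600 CPM in acute LSECs. In cirrhosis, 1 of the 15 was called higher and 5 lower (median log2 fold change 0.02, 0.07 over all genes tested), and without TMM factors 5 were called higher and 5 lower (median 0.36). The part of LSEC content in Islr was not tested.

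Thy1, the surface glycoprotein of portal fibroblasts, was called lower in acute and higher in cirrhosis. Healthy libraries held 0.286 to 2.51 CPM (median 1.22) and acute libraries 0.299, 0.245, 0.722, 0.138 and 0.316 CPM. In fibrosis the values were 4.16, 0.655, 0.266, 1.12 and 0.408 CPM, with replicate 12 far above the other 4. Cirrhosis libraries held 2.06 to 4.54 CPM (median 2.97). The acute and healthy ranges overlapped, and so did those of cirrhosis and healthy. The log2 fold change was -1.61 in acute (SE 0.68, adjusted p = 0.0448), a call that was lost without TMM factors (-1.21, adjusted p = 0.106) and when any of healthy replicates 1, 2 and 4 or acute replicates 1, 2, 4 and 8 was left out. It was -0.14 in fibrosis (SE 0.77, adjusted p = 0.88, not called, and 0.23 without TMM factors) and 1.69 in cirrhosis (SE 0.49, adjusted p = 0.0108, 3.23-fold). Cirrhosis was 3.64-fold above fibrosis (adjusted p = 0.00682) and 5.50-fold above it without fibrosis replicate 12 (adjusted p = 0.000394), but edgeR did not call this difference (1.25 on the log2 scale, adjusted p = 0.0741). The 13 lymphocyte genes measured summed to 119 to 499 CPM in healthy, 11.1 to 18.2 in acute, 9.86 to 61.9 in fibrosis and 127 to 276 in cirrhosis libraries, with no gene at 0 in any of these groups as a whole. In fibrosis, replicate 12 had the highest sum as well as the highest Thy1. Healthy replicates 1, 2 and 4 likewise had the highest sums and the highest Thy1 of their group. In cirrhosis, by contrast, replicate 1 had the highest sum (276 CPM) and the lowest Thy1 (2.06 CPM). Whether the lymphocytes of these libraries express Thy1 is not known from bulk RNA, and the part of lymphocyte RNA in Thy1 was not tested.

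Postn was nearly absent in healthy and acute LSECs. The 6 healthy libraries held 1, 1, 0, 0, 0 and 4 counts and the acute libraries 0, 0, 3, 2 and 0 counts, where a count of 0 allows up to 3. Fibrosis libraries held 15, 40, 10, 48 and 14 counts (0.430, 1.25, 0.332, 1.38 and 0.408 CPM), and cirrhosis libraries 12 to 152 counts (0.305 to 3.76 CPM, median 0.853). All fibrosis and cirrhosis libraries lay above all healthy and acute libraries, while fibrosis and cirrhosis overlapped. The fitted log2 fold change against healthy was 4.25 in fibrosis (SE 0.61, adjusted p = 5.39e-05) and 4.57 in cirrhosis (SE 0.82, adjusted p = 0.000658), and with so few counts in the healthy libraries its size depends on the prior count of the method. Postn passed the filter in both through the fibrosis or cirrhosis libraries alone. Cirrhosis and fibrosis differed by 0.38 (SE 0.72, adjusted p = 0.634, not called). Acute and healthy, from which the filter removed Postn, differed by -0.01 in log2(CPM + 0.5) (exact permutation p = 0.913, adjusted p = 0.913).

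**Figure D2:**
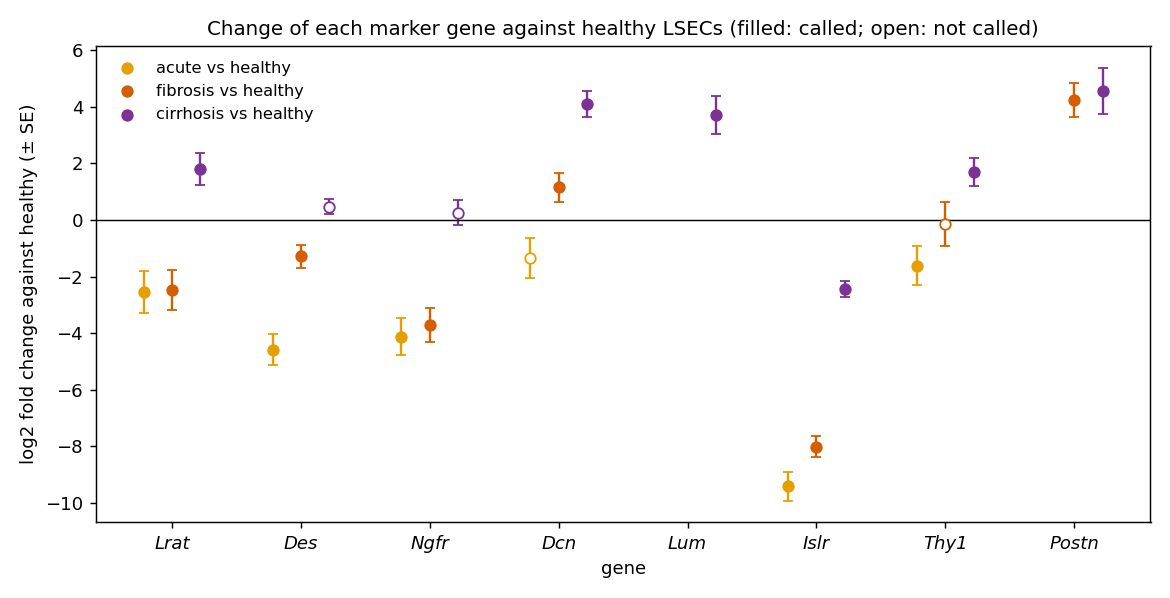
Log2 fold change of each marker gene against healthy LSECs in limma-voom (vertical axis, whiskers are SE), for acute, fibrosis and cirrhosis. Filled points were called and open points were not, and a gene removed by the low-count filter has no point. Cirrhosis points lie above 0 for 7 of 8 genes and at -2.43 for Islr, whereas the acute points all lie below 0.

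Comparisons between the stages of injury divided the genes in another way. From acute to fibrosis 14.3% of genes tested were called higher and 1.39% lower, and 4 of 6 marker genes were called higher (Des, Dcn, Islr and Postn), 0 lower. Postn (fitted difference 4.64 on the log2 scale, SE 0.70, adjusted p = 0.00443) passed the filter through the fibrosis libraries alone, and the size of its difference depends on the prior count. Thy1 (1.53, SE 0.75, adjusted p = 0.171) was not called, but it was called in edgeR, in DESeq2 and without fibrosis replicate 15 or 17. From fibrosis to cirrhosis 34.5% of genes were called higher and 29.7% lower, and 7 of 8 marker genes were called higher, with log2 fold changes from 1.80 (Des) to 5.65 (Islr). Lrat (4.35) and Ngfr (4.01) followed Islr, and Postn was the gene not called. Ngfr and Lum each reached the cutoff of the filter in 2 fibrosis and all 6 cirrhosis libraries, so the size of their differences depends on the prior count. From acute to cirrhosis 37.8% of genes were called higher and 31.9% lower, and all 8 marker genes were called higher, from 3.33 (Thy1) to 7.02 (Islr) on the log2 scale. Lum and Postn passed the filter there through the cirrhosis libraries alone, and Ngfr reached its cutoff in 1 acute and all 6 cirrhosis libraries. The libraries of the groups did not overlap for any of the 8 genes, and all cirrhosis libraries lay above all acute libraries for 33.4% of the genes tested. Without acute replicate 2, Des in this comparison was 22.2-fold in place of 34-fold higher. In the other comparisons of the CCl4 experiment fewer of these genes were separated. All acute libraries lay below all healthy ones for 3 of the 6 marker genes tested (Des, Ngfr and Islr) and for 30.8% of all genes tested. In fibrosis, of 7 marker genes tested, 3 lay below healthy (Lrat, Ngfr and Islr, beside 29.1% of genes) and Postn lay above (29.6%). In cirrhosis 3 lay above healthy (Dcn, Lum and Postn; 10.1% of genes) and Islr lay below (17%). Of 6 marker genes tested, fibrosis lay above acute for Dcn and Postn (6.48% of genes). Cirrhosis lay above fibrosis for 5 of 8 (30.8%), namely Lrat, Ngfr, Dcn, Lum and Islr.

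Whether the genes varied together from library to library could hardly be tested with 6 libraries per group, and no pair passed the adjusted threshold. Within the 6 healthy and the 6 cirrhosis libraries, 43 pairs of genes with a mean of at least 0.5 CPM were compared in log2(CPM + 0.5). Exact permutation tests of Pearson's r gave 5 pairs with a raw p under 0.05 and 0 with an adjusted p under 0.05 (smallest adjusted p = 0.119). With 6 libraries the smallest possible exact p is too large for a single pair to pass adjustment over 43 pairs. The absence of such a pair thus does not show that the genes varied independently. Islr and Postn in cirrhosis had the smallest p (r = -0.92, exact permutation p = 0.00278, adjusted p = 0.119; Spearman's rho = -0.94, exact permutation p = 0.0167, adjusted p = 0.717), and leaving out the 2 libraries most distant in Islr gave r = -0.73. Islr and Thy1 in cirrhosis gave r = -0.97 (exact permutation p = 0.00694, adjusted p = 0.149; rho = -0.89, exact permutation p = 0.0333, adjusted p = 0.717), and leaving out the 2 most distant gave r = -0.92. The median r was -0.12 over the 28 pairs in cirrhosis and 0.04 over the 15 pairs in healthy libraries.

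The genes whose 3 log2 fold changes against healthy were closest to those of a marker gene were found among 12255 genes by the root mean square difference. Dcn lay closest to Mgp (matrix Gla protein, difference 0.21) and Adamts12 (0.22), and Thy1 to Lhx2 (0.13) and Dact1 (0.14). Ngfr lay closest to Itga9 (0.12) and Stra6 (0.13), Lrat to Cyyr1 (0.11) and Ccr9 (0.23), and Des to Mal2 (0.12) and Cpb2 (0.17). For Islr the closest genes, Gzmc (0.62) and Uroc1 (0.65), lay farther away. Except for Islr, these differences were smaller than each SE of the marker gene's own 3 fold changes, so which gene ranked closest is uncertain. The measure rests on 3 comparisons that share their healthy libraries.

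Most stellate genes outside the set that could be tested were called lower in acute and fibrosis LSECs. Listed genes that the low-count filter removed are not counted here. The list counts stand beside 35.8% of all genes called higher and 38.3% lower in acute, 35.8% and 35.4% in fibrosis, and 28.8% and 25.7% in cirrhosis. Of the stellate quiescence and retinoid genes, 2 were called higher and 12 lower of 14 tested in acute (median log2 fold change -3.33, -0.09 over all genes tested), 2 higher and 11 lower of 15 in fibrosis (-2.22, -0.03 over all genes) and 7 higher and 3 lower of 15 in cirrhosis (0.85, 0.07 over all genes). Gfap, an intermediate filament protein of quiescent stellate cells, fell by 4.97 in acute (adjusted p = 2.85e-07), and Colec11, a collectin, fell by 4.73 (adjusted p = 1.86e-06). In cirrhosis Tcf21, a mesenchymal transcription factor, rose by 2.43 (adjusted p = 0.000138) and Hgf, the hepatocyte growth factor, by 2.03 (adjusted p = 0.0028). Reln, the secreted protein reelin, chosen after its values were seen, went the other way, and so did Nt5e. Nt5e had a mean of 5.59 CPM in healthy, 37.9 in acute and 66.2 in fibrosis LSECs. Reln was at 118 to 216 CPM in healthy, 1310 to 2120 in acute, 1170 to 1570 in fibrosis and 134 to 306 in cirrhosis libraries. It was 3.37 higher on the log2 scale in acute than in healthy LSECs (SE 0.18, adjusted p = 1.15e-08). With Reln included, the quiescence list summed to 782 to 1620 CPM in healthy and 1390 to 2210 CPM in acute libraries. Genes of the retinoid pathway of Lrat were 1 higher and 17 lower of 19 in acute (median -3.73), 1 higher and 16 lower of 19 in fibrosis (-2.39) and 2 higher and 9 lower of 19 in cirrhosis (-0.72), where Lrat itself was higher. In cirrhosis without TMM factors the retinoid list held 3 higher and 6 lower, and the quiescence list 9 higher and 0 lower. Aldh1a3, which makes retinoic acid, rose by 2.47 in cirrhosis (adjusted p = 0.000152), and Cyp26a1, which degrades it, fell by 1.75 (adjusted p = 0.000359).

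Myofibroblast genes were called in both directions at the early stages and were called higher or not called in cirrhosis. In acute LSECs 5 were called higher and 10 lower of 17 (median -1.48), in fibrosis 9 higher and 5 lower of 17 (1.83), and in cirrhosis 12 higher, 0 lower and 4 not called of 16 (1.94). Sparc, a matricellular protein, was among those not called, at a mean of 2110 CPM in healthy and 2030 CPM in cirrhosis. Tnc, the matrix protein tenascin C, rose by 5.67 in acute (SE 0.80, adjusted p = 3.74e-05), while Col3a1, a chain of fibrillar collagen, fell by 5.54 (SE 0.49, adjusted p = 7.79e-07). In cirrhosis Acta2, the smooth muscle actin of myofibroblasts, rose by 3.11 (SE 0.46, adjusted p = 0.00021) and Lox, a collagen cross-linking enzyme, by 3.44 (SE 0.52, adjusted p = 0.000237). Acta2 reached 2.57 to 42.6 CPM in fibrosis and 3.84 to 12.8 CPM in cirrhosis. It was at 0.179 to 1.5 CPM in healthy libraries.

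Portal fibroblast and adventitial genes were called lower without exception in acute LSECs (14 of 14 tested, median -4.10), and 11 of 15 in fibrosis (1 higher, median -2.38). In cirrhosis 5 of 15 were called higher and 0 lower (0.66), where the share called higher was near the 28.8% of all genes tested. Eln, elastin, fell by 9.27 in acute (SE 0.50, adjusted p = 1.31e-08), from 103 to 253 CPM in healthy to 0.161 to 0.463 CPM in acute libraries, and it was at 111 to 422 CPM in cirrhosis. Mgp rose by 3.93 in cirrhosis (SE 0.33, adjusted p = 2.43e-05). Other small leucine-rich proteoglycans were 0 higher and 5 lower of 7 in acute (median -3.32), 0 higher and 4 lower of 7 in fibrosis (-1.43) and 5 higher and 1 lower of 8 in cirrhosis (1.17). Ogn, osteoglycin, rose by 3.94 in cirrhosis (adjusted p = 0.000628) and Bgn, biglycan, by 2.01 (adjusted p = 0.000138), beside the rises of Dcn and Lum, whereas Prelp fell by 6.84 in acute (adjusted p = 6.16e-09).

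Pericyte and smooth muscle genes were 1 higher and 8 lower of 11 in acute (median -2.43), 2 higher and 6 lower of 11 in fibrosis (-1.17) and 7 higher and 2 lower of 12 in cirrhosis (1.57). Rgs5, a regulator of G-protein signalling of pericytes, was at 0.435 to 1.11 CPM in healthy and 11.3 to 22.3 CPM in cirrhosis libraries, a rise of 4.59 (SE 0.31, adjusted p = 7.5e-06). Abcc9, a subunit of potassium channels, rose in acute (4.61, adjusted p = 9.54e-07) and in cirrhosis (3.53, adjusted p = 0.000154).

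**Figure D3:**
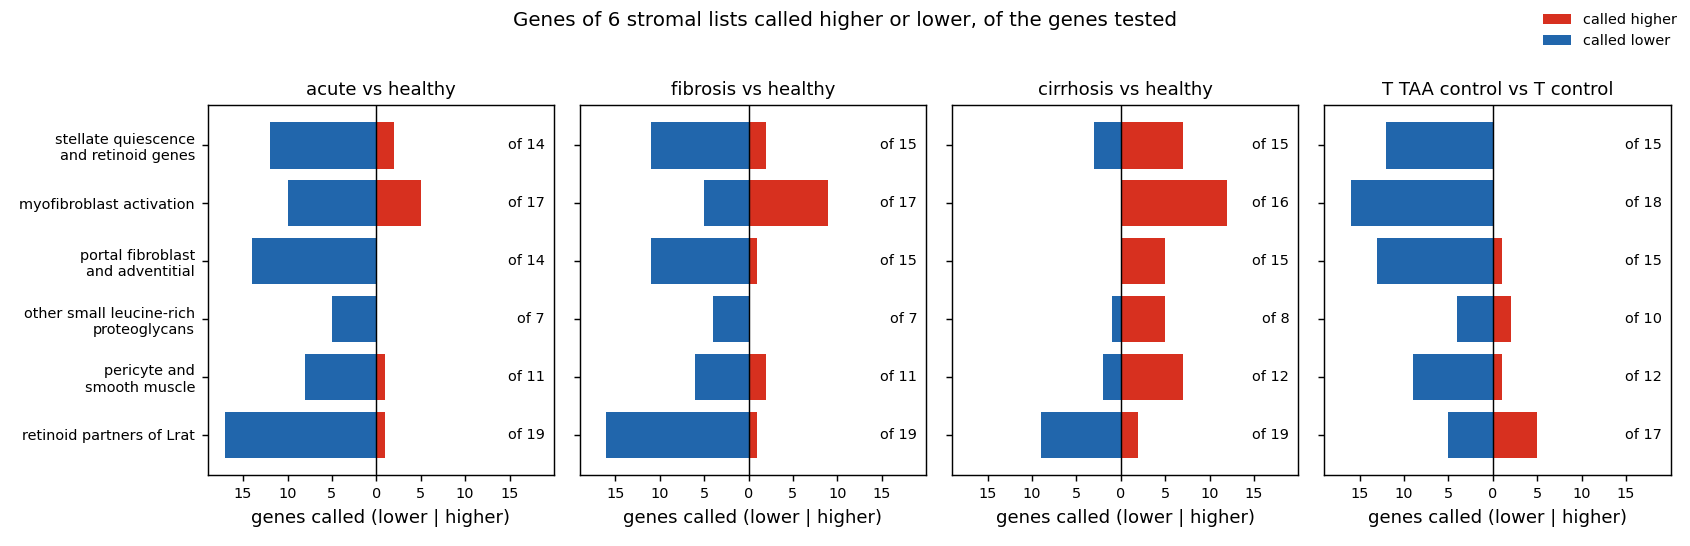
Number of genes called higher (red, to the right) and lower (blue, to the left) in 6 lists of stromal genes, for 3 comparisons with healthy LSECs and for T TAA control against T control. The number tested stands at the right of each panel. Myofibroblast genes were 12 higher and 0 lower in cirrhosis and 0 higher and 16 lower in T TAA control.

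In the TAA experiment 13.5% of genes were called higher in T TAA control than in T control and 15.9% lower. Of the 8 marker genes 4 were called lower (Des, Dcn, Thy1 and Postn), Islr was called higher, and Lrat, Ngfr and Lum were not called. CPM values of this experiment were scaled on its own 10 libraries and are not set against those of the CCl4 experiment. LSEC genes summed to 27200 to 34100 CPM in T control and 32000 to 41700 in T TAA control libraries, where 5 of 15 were called higher and 0 lower. Hepatocyte genes summed to 2280 to 5690 and 679 to 1550 CPM, and cholangiocyte genes to 4.83 to 12.5 and 1.33 to 2.65 CPM. Mesothelial genes summed to 2.35 to 4.90 and 1.2 to 3.12 CPM, with 0 called higher and 3 lower of 4 tested (median -1.17). Macrophage genes summed to 37.4 to 265 and 128 to 675 CPM, with 4 higher and 0 lower of 12 (median 1.25). Their part in the differences below was not tested.

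Postn was close to the limit of detection in T TAA control and passed the filter through the T control libraries alone. T control libraries held 2.75, 2.84, 1.31, 4.72 and 2.00 CPM, and T TAA control libraries 3, 4, 0, 0 and 4 counts. The log2 fold change was -5.30 (SE 0.75, adjusted p = 0.00027), and its size depends on the prior count. Thy1 was at 4.12, 4.94, 1.09, 4.75 and 4.03 CPM in T control and had 0, 10, 1, 10 and 5 counts in T TAA control libraries, a fall of 4.85 on the log2 scale (SE 0.96, adjusted p = 0.00192, 28.8-fold, and 17.5-fold without T TAA control replicate 10). It reached the cutoff of the filter in 5 T control libraries and 1 T TAA control library. Thy1 thus entered the fit through T control, and the size of its fall also depends on the prior count. Lymphocyte genes went the other way, with 6 of 8 called higher and 0 lower in T TAA control and sums of 47.9 to 92.7 CPM in T control and 86.2 to 149 CPM in T TAA control, and Ms4a1 was at 0 in T control. Dcn was at 9.97, 28.8, 8.16, 21.0 and 33.2 CPM in T control and at 2.17, 2.27, 0.724, 1.42 and 1.95 CPM in T TAA control (log2 fold change -3.48, SE 0.69, adjusted p = 0.0019, 11.1-fold lower). Des was at 11.2, 20.7, 8.09, 7.74 and 8.68 CPM against 1.90, 1.43, 1.91, 1.70 and 1.67 CPM (-2.59, SE 0.37, adjusted p = 0.000317, 6.04-fold lower). For these 4 genes all T TAA control libraries lay below all T control libraries, which held for 17.4% of the genes tested.

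The remaining 4 genes overlapped between the groups. Islr was at 206, 144, 79.2, 149 and 76.2 CPM in T control and at 275, 250, 285, 156 and 151 CPM in T TAA control (0.82 on the log2 scale, SE 0.30, adjusted p = 0.0414), a call that was lost without T control replicate 3 (0.66, adjusted p = 0.0942). Lrat was at 116, 220, 123, 50.9 and 102 CPM and at 90.1, 87.5, 105, 96.5 and 93.4 CPM (-0.23, SE 0.29, adjusted p = 0.544). Its spread was much wider in T control (SD 61.5 CPM) than in T TAA control (SD 6.74 CPM), a difference that was not tested. Ngfr was at 1.34, 2.42, 1.7, 1.3 and 0.686 CPM and at 0.849, 0.867, 0.329, 2.53 and 2.55 CPM (-0.35, SE 0.54, adjusted p = 0.606), with replicates 14 and 15 at the top. Lum had 6 to 36 counts in T control and 1 to 25 counts in T TAA control libraries (-0.70, SE 0.75, adjusted p = 0.462). Beside the 13.5% of all genes called higher and 15.9% lower, T TAA control had 0 higher and 16 lower of 18 myofibroblast genes (median -3.64, 0.03 over all genes), 0 and 12 of 15 quiescence genes (-1.50), 1 and 13 of 15 portal fibroblast genes (-1.89) and 1 and 9 of 12 pericyte genes (-1.25). The other proteoglycans were 2 higher and 4 lower of 10 (-0.26) and the retinoid partners of Lrat 5 higher and 5 lower of 17 (0.22).

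**Figure D4:**
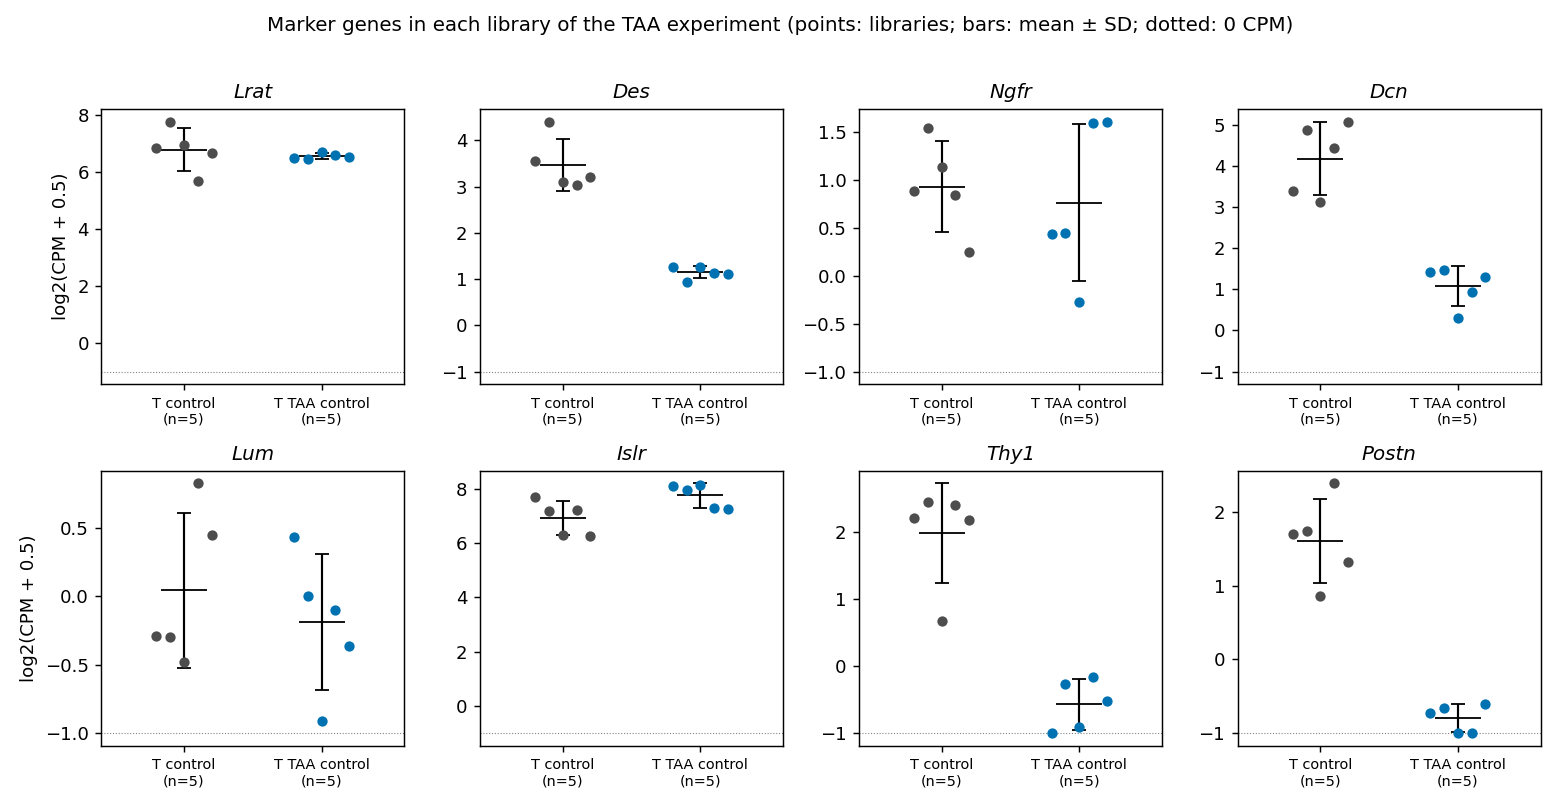
Level of each of the 8 marker genes in every library of the TAA experiment, as log2(CPM + 0.5) on the vertical axis, for T control and T TAA control (n = 5 each). Points are libraries, bars with whiskers are mean ± SD, and the dotted line is 0 CPM. Des, Dcn, Thy1 and Postn were lower in all T TAA control libraries than in any T control library.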

How the data were processed

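RNA of rat LSECs was sequenced in 32 libraries, 22 of the CCl4 and 10 of the TAA experiment. Per the labels and the methods of the study, the authors prepared poly(A) strand-specific libraries, used STAR to map reads on Rnor_6.0 and RSEM to quantify genes. Their submitters' processing notes also name FastQC, Trim Galore and limma, and versions are not given in the sources used here. The values the authors deposited are RSEM expected counts per gene, neither normalized nor pooled. Of the genes, 197 had no symbol.

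Expected counts were rounded, genes filtered with filterByExpr and fitted with TMM factors and limma-voom on the libraries of the 2 groups compared, without covariates, because the study's methods name this test and its thresholds (R 4.3.3, limma 3.58.1, edgeR 4.0.16). Adjusted p-values are Benjamini-Hochberg values over all genes tested. CPM used TMM factors of each experiment, and log2 CPM a pseudocount of 0.5. Marker genes removed by the filter were compared with exact two-sided permutation tests (scipy 1.17.1). A count of 0 allows up to 3 counts, for counting error only. The groups come from the sample labels, each library being a separate isolation by the study's description, and titles were followed where titles and descriptions of TAA libraries disagreed. The fits were tested on simulated data with the same relative spread for all genes and with changes only in genes above a minimum count. That test does not cover marker genes with few counts or a wider spread. Alternatives were adjusted p-values, edgeR's quasi-likelihood test, DESeq2 1.42.0, other scalings and filters, weights per library, unrounded counts, 1 fit over the CCl4 groups, replicate blocks, T TAA control replicates 14 and 15 as 1 library and each library left out. The genes and lists were chosen with earlier results of these data known. From each list at most the 3 largest called changes with an adjusted p under 0.05 in acute and in cirrhosis are named. For each marker gene the 2 genes nearest in the 3 changes against healthy are named as well. Outside this rule, Reln, Sparc and Cdh5 are named because they did not follow their lists, and list genes at 0 are named beside the marker sums. Listed genes were looked up by symbol, and a list of partners of Ngfr is not reported here. No batch is given in the labels. Promoter sequences are RefSeq's on GRCr8, another assembly than that of the reads, and gene coordinates are not used. Gene lengths were not used, so levels of different genes are not compared. Figures were drawn with matplotlib 3.10.9.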

Additional observations from a re-analysis of the deposited data

Results flagged for a closer look

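Among 48 groups of libraries (8 genes in 6 groups), 5 held a library far from the others of its group by Dixon's test on log2(CPM + 0.5), which chance gives in about 1 of 20 groups, or 2.4 here. In cirrhosis, Des was lowest in replicate 5, at 6.64 CPM. Ngfr in cirrhosis was lowest in replicate 2, at 1.49 CPM, and Lum was highest in replicate 1, at 3.82 CPM. Thy1 in T control was lowest in replicate 3, at 1.09 CPM, against 4.03 to 4.94 CPM in the others. Postn in healthy LSECs was highest in replicate 6, at 0.103 CPM, which is 4 counts.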

How the results depend on the processing

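The number of marker genes called stayed within 1.5 times under every alternative tried in all 7 comparisons, from 4 to 7 in acute, 5 to 6 in fibrosis and 5 to 7 in cirrhosis against healthy, and from 4 to 5 in the TAA experiment. Of 1196 recomputed values, 1140 kept their direction and side of the threshold, 25 lost and 12 gained a call, and 19 turned direction, all of them differences that were not called. Lists were recomputed under the other scalings only. The cause of these changes was not tested.

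Directions turned for Thy1, fibrosis against healthy (0.06 in edgeR, 0.08 in DESeq2, 0.23 without TMM factors, -0.72 to 0.25 with 1 library left out), Lrat, fibrosis against acute (-0.10 in edgeR, -0.12 in DESeq2, -0.23 to 0.36 with 1 library left out), Postn, cirrhosis against fibrosis (-0.16 with weights per library, -0.02 to 0.66 with 1 library left out), and Postn, acute against healthy, in the permutation comparison without TMM factors (0.01). In the TAA experiment, leaving out 1 library gave -0.51 to 0.02 for Lrat, -0.64 to 0.08 for Ngfr and -1.08 to 0.01 for Lum. The difference of Lum between fibrosis and acute passed the threshold without TMM factors (0.49, exact permutation test, adjusted p = 0.0397). Upper-quartile factors moved the median of all genes by 0.14 in cirrhosis against healthy and by 0.19 against acute, and the median of the myofibroblast list, cirrhosis against fibrosis, moved from 0.07 to -0.04 without TMM factors.

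Replicate numbers are shared by healthy, acute and cirrhosis libraries of different rats, and same-numbered libraries deviated together unevenly (correlations of -0.18 to 0.25 between cirrhosis and healthy). With the replicate number as a block, 5 genes were called in acute and 6 in cirrhosis against healthy and 8 in cirrhosis against acute, the same numbers as without it, and no call changed. Depth limits Postn, Lum and Ngfr, which had 14 counts or fewer in all acute libraries.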
